A study of Mus musculus with 12 samples.

Results

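The sodium, phosphate, sulfate, dicarboxylate and water transport of the proximal tubule was followed through 9 genes, chosen by name for the function of their products. They are Slc34a1 and Slc34a3 (sodium-phosphate cotransporters), Slc9a3 and Slc4a4 (sodium-proton exchange and sodium-bicarbonate cotransport), Slc13a1 and Slc13a3 (sodium-sulfate and sodium-dicarboxylate cotransporters), Slc17a3 (an organic anion carrier), Pdzk1 (a scaffold) and Aqp1 (a water channel). All 9 were found among the 27412 Ensembl gene IDs of the table and all passed the filter on low counts, which left 19564 genes for the test. Their IDs are ENSMUSG00000021490 (Slc34a1), ENSMUSG00000006469 (Slc34a3), ENSMUSG00000036123 (Slc9a3), ENSMUSG00000060961 (Slc4a4), ENSMUSG00000029700 (Slc13a1), ENSMUSG00000018459 (Slc13a3), ENSMUSG00000036083 (Slc17a3), ENSMUSG00000038298 (Pdzk1) and ENSMUSG00000004655 (Aqp1).

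The proximal tubule takes back most of the filtered phosphate, bicarbonate, sulfate and citrate, and it does so largely with carriers that use the sodium gradient across the cell membrane. Phosphate enters through the SLC34 carriers of the brush border, which parathyroid hormone and the hormone FGF23 remove from the membrane, and which PDZ scaffold proteins hold in place. Protons leave through the exchanger encoded by Slc9a3 while bicarbonate leaves on the basolateral side through the cotransporter encoded by Slc4a4, and water follows through aquaporin 1.

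RNA of thin outer slices of kidney cortex was sequenced from 3 male C57BL/6 mice carrying the γ-HIF2αM3 transgene (HIF2aM3 animals 17-51, 17-53 and 17-56) and from 3 wild-type (WT) male C57BL/6 mice (WT 1, 2 and 3), with both kidneys of each animal as separate libraries, 12 in all. Epas1 encodes HIF2α, a subunit of the factors that activate genes when oxygen is low. The γ-glutamyl transferase (GGT) promoter that drives the transgene works in the proximal tubule. The animals were untreated, and the sources used here do not give their age. The HIF2aM3 animals share the prefix 17 in their names, which no WT animal has, and whether this marks 1 transgenic line is not given either. If it does, line and insertion site cannot be told apart from the transgene.

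Library totals ran from 24032148 to 43499743 reads, except for kidney 2 of 17-51 with 4161829. Even there the scarcest of the 9 genes, Slc34a3 and Slc9a3, had 270 reads each. Epas1, under which transgene reads may or may not have been counted, averaged 267 ± 16.7 CPM in HIF2aM3 animals and 204 ± 30.9 CPM in WT animals (SD, n = 3 each; log2 fold change 0.39 ± 0.11, SE; edgeR adjusted p = 0.0881). The 24 listed proximal tubule markers other than the 9 genes summed to 67484 to 70704 CPM in HIF2aM3 animals and 66902 to 73491 CPM in WT animals, and 1 of the 24 (Slc22a6) was called, lower, or 0 of 24 without kidney 2 of 17-56. Gpx3 (mean 22932 CPM in HIF2aM3, 26534 CPM in WT) and Kap (17767 CPM in HIF2aM3, 14637 CPM in WT) dominated these sums and differed in opposite directions. All HIF2aM3 animals lay below all WT animals for 5 of the 24 and above them for 3, beside 16.5% and 15.5% of all tested genes. Kidney 2 of 17-56 stood apart from the other 11 libraries. It held the highest value of all 12 libraries for 9 of 12 listed tubular injury genes, whose summed level was 2451 CPM there, against 1039 to 1132 CPM in the other HIF2aM3 libraries and 1094 to 1443 CPM in the WT libraries. Havcr1, an injury marker of the proximal tubule, had 58.8 CPM in it, and Spp1, which encodes osteopontin, 1743 CPM. Values without this library are given beside several of the results that it entered. The comparison of kidney 2 with kidney 1 was not fitted without this library alone.

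RefSeq (GRCm38.p6) promoter windows were at hand for 8 of the 9 genes, Slc13a1 being the exception, with 10 windows in all. Of these, 2 are shown, because Slc13a3 had the largest difference between genotypes and Slc9a3 the most matches to the hypoxia core motif. Each is the 250 bases before the annotated start, read in the direction of transcription, at chr2:165473198-165473447 on the minus strand for Slc13a3 and at chr13:74121163-74121412 on the plus strand for Slc9a3. Capitals mark matches on either strand to the hypoxia core, ACGTG or GCGTG.
Slc13a3: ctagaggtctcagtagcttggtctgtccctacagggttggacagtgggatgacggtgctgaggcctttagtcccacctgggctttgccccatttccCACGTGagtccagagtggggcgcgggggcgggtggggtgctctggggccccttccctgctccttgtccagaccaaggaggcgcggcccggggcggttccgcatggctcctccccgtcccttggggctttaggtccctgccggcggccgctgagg
Slc9a3: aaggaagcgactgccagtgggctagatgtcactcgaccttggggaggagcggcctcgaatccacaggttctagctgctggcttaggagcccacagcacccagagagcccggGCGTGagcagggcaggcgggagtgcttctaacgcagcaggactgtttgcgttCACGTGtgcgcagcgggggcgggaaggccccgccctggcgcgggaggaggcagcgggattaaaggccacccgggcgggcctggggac

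The Slc13a3 window held the palindrome CACGTG, also known as an E-box, 154 to 149 bases before the start. This palindrome counts as a hypoxia core on both strands, and 6.02% of 32817 mouse promoter windows of this length held it. In Slc9a3 a CACGTG lay 87 to 82 bases and a GCGTG 139 to 135 bases before the start. A hypoxia core was also present in a window of Slc4a4 and in both windows of Pdzk1, so that 4 of the 8 genes and 5 of their 10 windows had one, against 38.6% of all windows. Windows of Slc34a1, Slc34a3, Slc17a3 and Aqp1 held none. Of the 4 genes with a hypoxia core, Slc13a3 and Slc9a3 and Pdzk1 had lower means in HIF2aM3 and Slc4a4 a higher one, with the values given below. Slc34a1, Slc34a3, Slc17a3 and Aqp1, without a core in their windows, all had lower means as well. A link between the motif and the levels was not tested.

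On the per-length scale of the authors' RPKM (reads scaled to transcript length and library size), the 9 genes spanned about 2 orders of magnitude. Slc34a1 was the highest with 938 ± 86.9 RPKM in HIF2aM3 and 1070 ± 44.3 RPKM in WT animals (SD, n = 3 each), rank 22 in HIF2aM3 and rank 20 in WT among all 27412 genes, and it held 0.641% of all HIF2aM3 reads and 0.733% of all WT reads. Aqp1 came next with 219 ± 11.6 RPKM in HIF2aM3 and 245 ± 16.2 RPKM in WT. Slc13a3 (71.0 in HIF2aM3, 91.4 in WT), Pdzk1 (78.9 in HIF2aM3, 82.5 in WT) and Slc4a4 (82.1 in HIF2aM3, 74.8 in WT) lay close together, and the animal ranges of Pdzk1 overlapped those of both others in each genotype. Below them in the WT order came Slc13a1 with 58.0 RPKM in HIF2aM3 and 49.7 RPKM in WT. In HIF2aM3 its animals, at 49.9 to 73.6 RPKM, overlapped those of Slc13a3, at 60.2 to 79.0 RPKM. Then came Slc17a3 with 33.3 RPKM in HIF2aM3 and 36.6 RPKM in WT, and Slc9a3 with 22.8 RPKM in HIF2aM3 and 23.2 RPKM in WT. Slc34a3 was the lowest, with 9.17 ± 0.294 RPKM in HIF2aM3 and 10.4 ± 0.509 RPKM in WT. All other neighbours in the WT order had animal ranges that did not overlap.

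**Figure D1:**
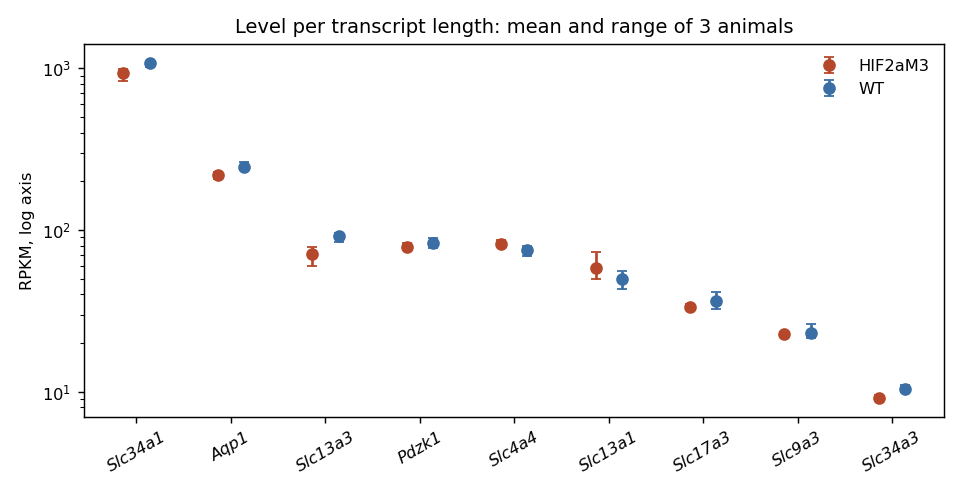
Levels of the 9 genes per transcript length in the authors' RPKM on a log axis, genes ordered by their WT mean, with HIF2aM3 left of WT; points are means and bars the range of 3 animals. Slc34a1 stood at 938 RPKM in HIF2aM3 and 1070 RPKM in WT, and Slc34a3 at 9.17 RPKM in HIF2aM3 and 10.4 RPKM in WT.

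None of the 9 genes passed the threshold between genotypes when the kidneys were summed per animal (edgeR quasi-likelihood test, Benjamini-Hochberg adjusted p under 0.05 over all genes), where 3.75% of all tested genes did. Of the 9, 7 had a lower and 2 a higher mean in HIF2aM3, and their median log2 fold change was -0.15 beside 0.0049 over all tested genes. In 4 genes, Slc34a1, Slc34a3, Slc13a3 and Aqp1, all 3 HIF2aM3 animals lay below all 3 WT animals, while 16.5% of all tested genes were separated in that direction. None had the opposite separation, which 15.5% of all genes showed, and 32% of all genes were separated in either direction. An unadjusted p under 0.05 was reached by 3 of the 9 (Slc34a3, Slc13a3 and Aqp1) and by 24.9% of all tested genes. The 95% intervals of the 9 log2 fold changes together ran from -0.63 to 0.59, and 18.5% of all tested genes differed by as much as the most changed of the 9 or more. In bulk tissue, fewer cells of a type and less RNA per cell cannot be told apart.

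**Figure D2:**
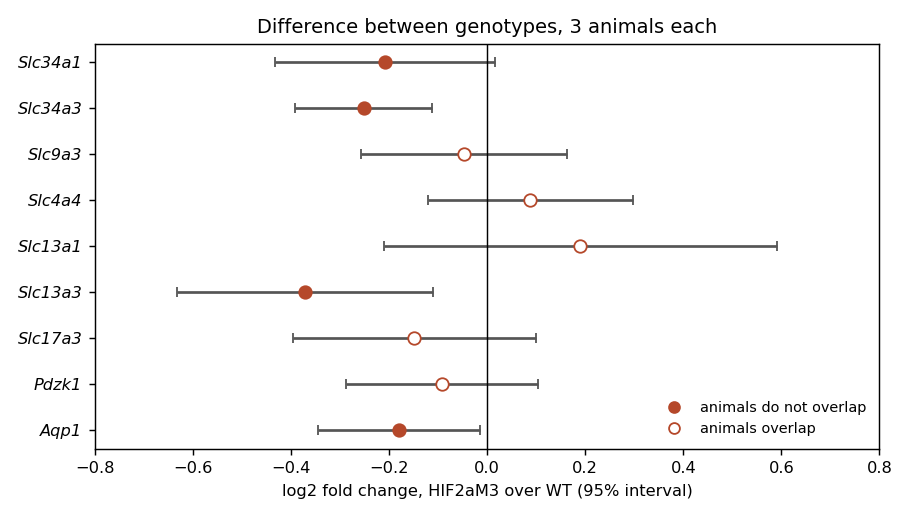
Log2 fold change of HIF2aM3 over WT for the 9 genes with its 95% interval, 3 animals per genotype; filled points are genes whose animals do not overlap between genotypes. The 4 filled points are all below 0, and Slc13a3 lies lowest at -0.37.

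Slc34a1, which encodes the main phosphate carrier of the brush border in rodents, had 6806, 6634 and 5692 CPM (reads scaled to library size with TMM factors) in HIF2aM3 animals 17-51, 17-53 and 17-56, against 7115, 7200 and 7788 CPM in WT 1, 2 and 3. All HIF2aM3 animals were below all WT animals, with 17-56 the lowest. The log2 fold change was -0.21 ± 0.10 (SE; 95% interval -0.43 to 0.02; edgeR adjusted p = 0.229). It was the only one of the 9 genes whose libraries also did not overlap, at 5170 to 6868 CPM in HIF2aM3 and 7057 to 7946 CPM in WT, a separation that 6.8% of all tested genes showed in this direction. The lowest of these values came from kidney 2 of 17-56, and without that library the log2 fold change was -0.18 (adjusted p = 0.238). Without both kidneys of 17-56 it was -0.13 (adjusted p = 0.467). Exons of Pfn3, a profilin gene, overlap Slc34a1 on the opposite strand in the GENCODE M21 annotation, and the strand setting of the counting is not known, so Slc34a1 and Pfn3 reads may be mixed.

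Slc34a3 encodes the second sodium-phosphate carrier of the brush border, whose loss in humans causes a hereditary rickets with urinary calcium loss. It had 55.7, 55.3 and 56.6 CPM in HIF2aM3 animals 17-51, 17-53 and 17-56, against 70.7, 61.7 and 67.3 CPM in WT 1, 2 and 3. The HIF2aM3 animals lay close together and below every WT animal, although single libraries of the genotypes overlapped. The log2 fold change of -0.25 ± 0.06 (SE; 95% interval -0.39 to -0.11) had the smallest p of the 9 genes, 0.00329, which became 0.0616 after edgeR's adjustment over all genes. The gene passed the threshold in DESeq2 (adjusted p = 0.0162), with no count filter (adjusted p = 0.0431) and without WT 2 (-0.31, adjusted p = 0.0207). It did not pass in the other 19 of 22 alternatives, among them kidney 1 only (-0.14, adjusted p = 0.253) and the animal as a random effect (-0.24, adjusted p = 0.174).

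The ratio of the 2 phosphate carriers did not separate the genotypes. Per length, Slc34a1 was 104, 111 and 92.0 times Slc34a3 in HIF2aM3 animals 17-51, 17-53 and 17-56, and 92.9, 108 and 108 times in WT 1, 2 and 3. The log2 ratio differed by -0.0081 (exact permutation test, two-sided, p = 0.9, adjusted p = 0.9 over 4 ratios, where the smallest p that 3 animals against 3 allow is 0.1).

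Slc9a3 encodes the sodium-proton exchanger of the brush border. It had 64.0, 63.3 and 59.8 CPM in HIF2aM3 animals 17-51, 17-53 and 17-56, against 73.7, 57.7 and 61.9 CPM in WT 1, 2 and 3. The HIF2aM3 values all lay within the WT range (log2 fold change -0.05 ± 0.09, SE; 95% interval -0.26 to 0.16; edgeR adjusted p = 0.785). Its sign turned to 0.05 without WT 1. Slc4a4, whose product carries sodium and bicarbonate across the basolateral membrane, had 2055, 1936 and 1934 CPM in HIF2aM3 animals 17-51, 17-53 and 17-56, against 1995, 1649 and 1932 CPM in WT 1, 2 and 3. The groups overlapped, WT 2 being the lowest animal (0.09 ± 0.09, SE; 95% interval -0.12 to 0.30; edgeR adjusted p = 0.585), and without WT 2 the log2 fold change was 0.0012. The per-length ratio of Slc9a3 to Slc4a4 was 0.278 in HIF2aM3 and 0.309 in WT on average (geometric means of 3 animals), a log2 difference of -0.15 (exact permutation p = 0.2, adjusted p = 0.267).

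Neither SLC13 carrier passed the threshold. Slc13a3, whose product brings dicarboxylates such as succinate and α-ketoglutarate into the cell across the basolateral membrane, had 848, 763 and 631 CPM in HIF2aM3 animals 17-51, 17-53 and 17-56, against 905, 980 and 1015 CPM in WT 1, 2 and 3. Every HIF2aM3 animal was below every WT animal, and 17-56 was the lowest. The mean was 22.7% lower in HIF2aM3, with a log2 fold change of -0.37 ± 0.11 (SE; 95% interval -0.63 to -0.11; edgeR adjusted p = 0.101). By library, the 6 HIF2aM3 values ran from 554 to 855.0 CPM and the 6 WT values from 854.4 to 1057 CPM, so that only the extremes met. Kidney 2 of 17-56 was again the lowest, and without it the log2 fold change was -0.34 (adjusted p = 0.0816). Slc13a3 passed the threshold with the 12 libraries as replicates, which ignores that kidneys share an animal (adjusted p = 0.00447), with the animal as a random effect (adjusted p = 0.0165) and in DESeq2 (adjusted p = 0.0141), and in the authors' deposited table its log2 fold change of -0.37 has a q of 0.0272.

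Slc13a1, which encodes the sodium-sulfate carrier of the brush border, had 401, 405 and 592 CPM in HIF2aM3 animals 17-51, 17-53 and 17-56, against 465, 398 and 363 CPM in WT 1, 2 and 3. Only 17-56 exceeded the WT animals, and it did so in both kidneys, at 610 CPM in kidney 1 and 572.5 CPM in kidney 2, while the other HIF2aM3 libraries ran from 399.8 to 406.6 CPM and the WT libraries from 344.9 to 467.5 CPM. The log2 fold change of 0.19 ± 0.17 (SE; 95% interval -0.21 to 0.59; edgeR adjusted p = 0.526) was -0.02 without 17-56. Per length, Slc13a1 was at 0.632, 0.685 and 1.22 times Slc13a3 in HIF2aM3 animals 17-51, 17-53 and 17-56, and at 0.661, 0.523 and 0.458 times in WT 1, 2 and 3. The log2 ratio differed by 0.58, but 17-51 lay within the WT range (exact permutation p = 0.2, adjusted p = 0.267), and without 17-56 the difference was 0.28.

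Slc17a3, whose product carries urate and other organic anions in the proximal tubule, had 599, 570 and 624 CPM in HIF2aM3 animals 17-51, 17-53 and 17-56, against 757, 568 and 664 CPM in WT 1, 2 and 3. The groups overlapped through WT 2 (log2 fold change -0.15 ± 0.11, SE; 95% interval -0.40 to 0.10; edgeR adjusted p = 0.422). Pdzk1 encodes a scaffold with several PDZ domains that binds the tails of brush border carriers, among them the Slc34a1 product. It had 1044, 961 and 951 CPM in HIF2aM3 animals 17-51, 17-53 and 17-56, against 991, 1005 and 1156 CPM in WT 1, 2 and 3, again with overlap (-0.09 ± 0.08, SE; 95% interval -0.29 to 0.10; edgeR adjusted p = 0.532). Its exons overlap those of Cd160, Gpr89 and 4930442L01Rik on the opposite strand, so its value is uncertain. Per length, Pdzk1 was 0.0842 times Slc34a1 in HIF2aM3 and 0.0770 times in WT (log2 difference 0.13, exact permutation p = 0.2, adjusted p = 0.267).

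Aqp1 had 672, 636 and 594 CPM in HIF2aM3 animals 17-51, 17-53 and 17-56, against 700, 750 and 706 CPM in WT 1, 2 and 3. The animals did not overlap, and by library only kidney 1 of 17-51 (675.4 CPM) exceeded a WT library (673.1 CPM). The log2 fold change was -0.18 ± 0.07 (SE; 95% interval -0.35 to -0.01; edgeR adjusted p = 0.171), and -0.16 without kidney 2 of 17-56 (adjusted p = 0.191). It passed the threshold with the animal as a random effect (adjusted p = 0.0453) and with the libraries as replicates (adjusted p = 0.0140). Aqp1 is also expressed in the thin descending limb, in capillary endothelium and in red cells. Thin descending limb markers summed to 46.6 to 55.0 CPM in HIF2aM3 animals and 45.2 to 50.5 CPM in WT animals, with 0 of 6 called (smallest p for Bst1, 0.55 ± 0.24, adjusted p = 0.201). Endothelial markers summed to 1001 to 1017 CPM in HIF2aM3 and 663 to 957 CPM in WT, with 3 of 15 called, all higher (Kdr, Erg and Emcn). Erythrocyte markers summed to 89.9 to 147 CPM in HIF2aM3 and 123 to 196 CPM in WT, with 0 of 5 called (smallest p for Epb42, 0.78 ± 0.23, adjusted p = 0.0996). The median log2 fold change of the 5 was -0.59. Hbb-bs (-0.73), Hbb-bt (-0.82) and Alas2 (-0.59) were lower in HIF2aM3, and Slc4a1 (0.17) was higher like Epb42. Slc4a1 alone had 49.3 to 67.6 CPM in HIF2aM3 and 46.2 to 53.1 CPM in WT. The erythrocyte sums therefore do not follow the globin genes alone. The part of these cells in the Aqp1 value was not tested.

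**Figure D3:**
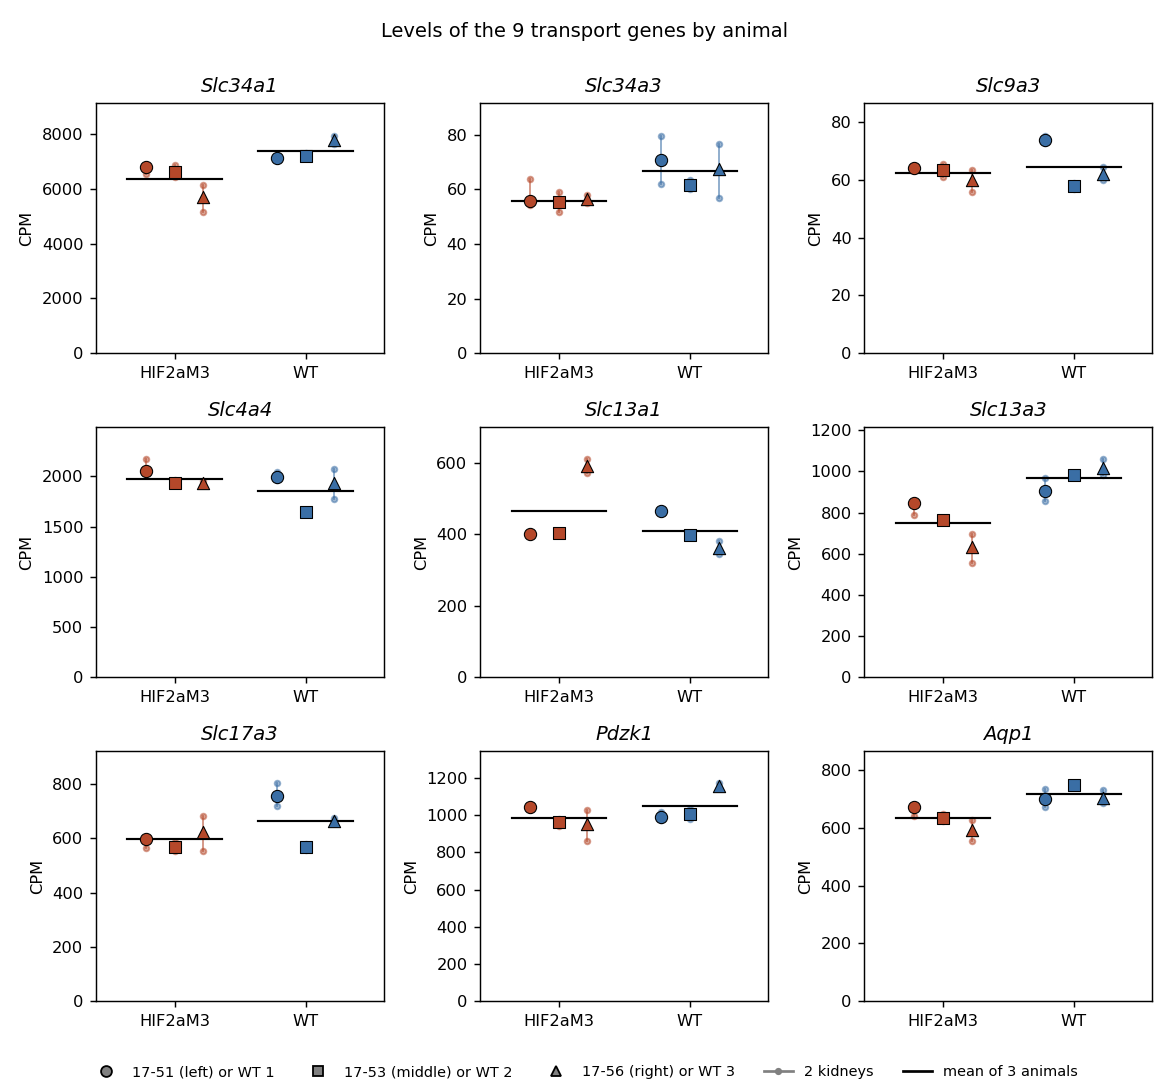
CPM of each of the 9 genes by animal, HIF2aM3 left and WT right in each panel, on linear axes from 0; large symbols are the animals with both kidneys summed, small points the 2 kidneys and lines the mean of 3 animals. Animal 17-56 is the lowest of the 6 for Slc34a1 (5692 CPM), Slc13a3 (631 CPM), Pdzk1 (951 CPM) and Aqp1 (594 CPM) and the highest for Slc13a1 (592 CPM).

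Summed over the 9 genes, the level was 12545, 12023 and 11135 CPM in HIF2aM3 animals 17-51, 17-53 and 17-56, against 13072, 12669 and 13751 CPM in WT 1, 2 and 3. Slc34a1 makes up the larger part of each sum. The genes did not move as 1 block within the HIF2aM3 animals, since 17-56 was the lowest of all 6 animals for 4 genes (Slc34a1, Slc13a3, Pdzk1 and Aqp1) and the highest for Slc13a1. Kidney 2 of 17-56 was the lowest of all 12 libraries for 6 genes (Slc34a1, Slc9a3, Slc13a3, Slc17a3, Pdzk1 and Aqp1) and not for Slc34a3, Slc4a4 and Slc13a1. The listed injury genes had their highest sum in that same library. Their part in the 6 low values was not tested, and without the library 0 of the 9 genes were called, as with it. Without it the log2 fold change was -0.028 for Slc9a3, -0.11 for Slc17a3 and -0.065 for Pdzk1. Scaling all animals to the 24 proximal tubule markers instead of TMM factors shifted the median of all genes by 0.0086 and gave log2 fold changes of -0.20 for Slc34a1, -0.24 for Slc34a3, -0.37 for Slc13a3 and -0.17 for Aqp1.

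**Figure D4:**
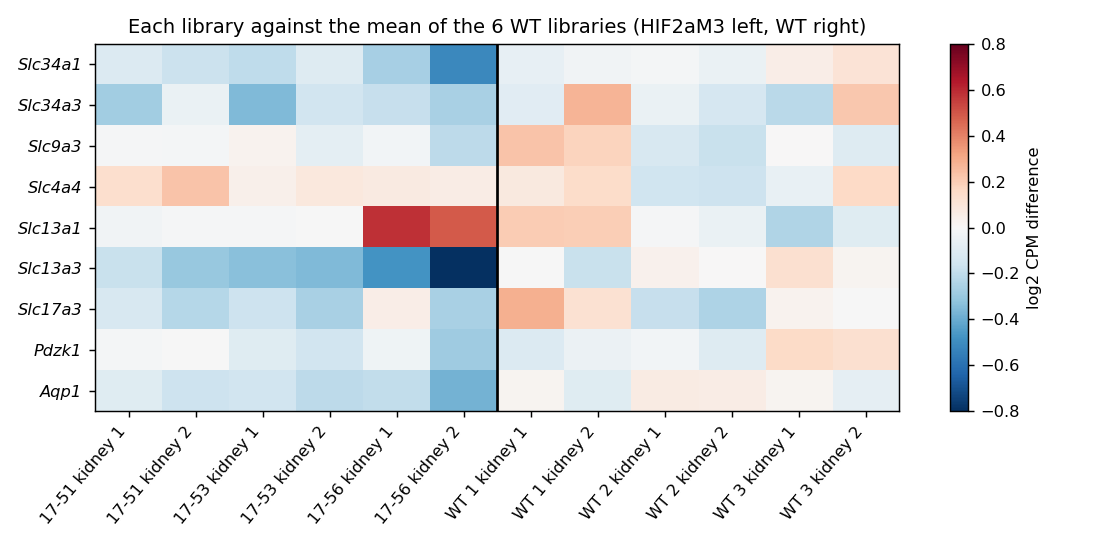
Log2 CPM of each of the 9 genes in each of the 12 libraries, less the mean of the 6 WT libraries, HIF2aM3 left of the line and WT right of it; blue is below the WT mean and red above. Kidney 2 of 17-56 is the lowest library for 6 of the 9 genes, and both kidneys of 17-56 are highest for Slc13a1.

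The kidneys of an animal gave a second view of the spread. Kidney 2 did not differ from kidney 1 past the threshold for any of the 9 genes (edgeR with the animal as a block), where 0.0893% of all tested genes did. An unadjusted p under 0.05 was reached by 4 of the 9, beside 8.45% of all tested genes, and each of the 4 was lower in kidney 2 in all 6 animals, a pattern that 3.25% of all tested genes showed. None of the 9 was higher in kidney 2 in all 6 animals, as 1.97% of all genes were. They were Slc9a3 (log2 difference of kidney 2 from kidney 1 -0.09 ± 0.03, SE), Slc13a3 (-0.13 ± 0.04), Slc17a3 (-0.13 ± 0.04) and Aqp1 (-0.09 ± 0.03), with adjusted p between 0.260 and 0.452. For Slc13a3, kidney 2 against kidney 1 had 786 against 855 CPM in 17-51, 759 against 767 CPM in 17-53 and 554 against 696 CPM in 17-56. In the WT animals it had 854 against 966, 972 against 992 and 981 against 1057 CPM. The labels do not say whether kidney 2 is the left or the right one. The difference between kidneys was not shown to depend on genotype, since 0 of the 9 genes were called and 0 had an unadjusted p under 0.05 for the interaction, beside 3.09% of all tested genes.

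The genes whose values over the 12 libraries, centred on their own mean, lay closest to Slc34a1 were Pfn3, Higd2a and Naa38, with root mean square differences of 0.0273, 0.0523 and 0.0538 on the log2 scale, among 9938 genes with a mean of at least 10 CPM. Pfn3 is the overlapping gene, and its reads came to 8.38 to 8.85% of the Slc34a1 reads in HIF2aM3 libraries and 8.52 to 8.82% in WT libraries. Closest to Slc13a3 were U2af1l4 (0.0846), Gm16418 (0.0859) and Rfng (0.0862). None of these 6 genes was called between genotypes.

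Around the phosphate carriers, 1 of 19 tested genes of phosphate transport and its hormonal control was called, against a background of 1.82% of all genes lower and 1.93% higher in HIF2aM3. This was Pth1r, the receptor gene for parathyroid hormone, which fell to 470 ± 29.5 CPM in HIF2aM3, against 596 ± 16.6 CPM in WT (SD, n = 3 each; log2 fold change -0.34 ± 0.07, SE; edgeR adjusted p = 0.0431). Its exons overlap Myl3 on the opposite strand. The call held in 1 of the 6 fits that leave out an animal, with the value between -0.38 and -0.29 under all 22 alternatives. The list median was -0.07. Kl, the FGF23 co-receptor gene klotho, had 1319 CPM in HIF2aM3 and 1387 CPM in WT and was not called (adjusted p = 0.616).

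The vitamin D hydroxylases, named after their values were seen, had large differences that did not pass. Cyp27b1, whose product makes active vitamin D, had 6.77, 12.03 and 21.7 CPM in HIF2aM3 animals 17-51, 17-53 and 17-56, against 64.7, 32.5 and 40.6 CPM in WT 1, 2 and 3 (log2 fold change -1.74 ± 0.43, SE; edgeR adjusted p = 0.0753). Cyp24a1, whose product breaks it down, had 355, 154 and 232 CPM in the same HIF2aM3 animals, against 120, 90.7 and 67.5 CPM in WT 1, 2 and 3 (1.41 ± 0.34, SE; adjusted p = 0.0692). Neither the animals nor the libraries of the genotypes overlapped, single libraries having 5.43 to 22.3 CPM of Cyp27b1 in HIF2aM3 and 32.1 to 73.6 CPM in WT. For Cyp24a1 they had 145 to 356 CPM in HIF2aM3 and 60.2 to 127 CPM in WT. Among all tested genes, 16.5% were separated by animal in the direction of Cyp27b1 and 15.5% in that of Cyp24a1. By library, 6.8% were separated in the direction of Cyp27b1, and the share in the other direction was not counted. The receptor gene Vdr had 394 ± 34.2 CPM in HIF2aM3 and 384 ± 95.03 CPM in WT (adjusted p = 0.925).

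Of 12 PDZ scaffold and brush border partner genes 1 was called, and the list median was -0.0023. Shank2, which encodes a large postsynaptic and epithelial PDZ scaffold, rose to 92.3 ± 0.598 CPM in HIF2aM3, against 70.3 ± 3.57 CPM in WT (log2 fold change 0.39 ± 0.05, SE; edgeR adjusted p = 0.0204), and kept its call in 3 of the 6 leave-outs. Slc9a3r1 and Ezr, which encode the scaffold and the actin linker that anchor Slc34a1 and Slc9a3 products, had log2 fold changes of 0.0083 ± 0.07 and 0.00028 ± 0.06 (SE).

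Sodium, proton and bicarbonate handling had 5 of 19 genes called, 2 higher and 3 lower, with a list median of -0.20. Slc9a8, another sodium-proton exchanger of the brush border, rose to 206 ± 35.4 CPM in HIF2aM3, against 121 ± 11.8 CPM in WT (log2 fold change 0.77 ± 0.14, SE; edgeR adjusted p = 0.0359). Agtr1a, an angiotensin II receptor gene, rose as well (79.8 CPM in HIF2aM3, 63.9 CPM in WT; 0.32 ± 0.05, adjusted p = 0.0263). Atp6v0a4, a proton pump subunit gene also abundant in intercalated cells, fell to 293 CPM in HIF2aM3, against 390 CPM in WT (-0.42 ± 0.06; adjusted p = 0.0265). Exons of Atp6v0a4 overlap Tmem213 on the opposite strand and D630045J12Rik on the same strand. Slc9a2, a further exchanger gene, was named after its values were seen. It fell by 0.41 ± 0.08 on the log2 scale (SE; adjusted p = 0.0433), and it was not called without kidney 2 of 17-56 (adjusted p = 0.0606). Thick limb and distal tubule markers summed to 5950 to 6551 CPM in HIF2aM3 and 6870 to 8363 CPM in WT, with 2 of 13 called, both lower (Kcnj10 and Klk1). Collecting duct markers summed to 648 to 861 CPM in HIF2aM3 and 1060 to 1087 CPM in WT, with 5 of 15 called, all lower (Scnn1a, Krt7, Avpr2, Foxi1 and Aqp3). Without kidney 2 of 17-56, 3 of the 13 (Umod added) and 6 of the 15 (Aqp2 added) were called, all lower. The part of these cells in the Atp6v0a4 value was not tested.

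Of 16 genes of sulfate and dicarboxylate transport 2 were called. Slc22a6, whose product takes up organic anions in exchange for the α-ketoglutarate that the Slc13a3 product brings in, fell to 1176 ± 39.9 CPM in HIF2aM3, against 1666 ± 226 CPM in WT (log2 fold change -0.50 ± 0.11, SE; edgeR adjusted p = 0.0483), and was at adjusted p = 0.0526 without kidney 2 of 17-56. Sucnr1, the succinate receptor gene, rose to 90.9 ± 6.12 CPM in HIF2aM3, against 65.7 ± 8.08 CPM in WT (0.47 ± 0.09; adjusted p = 0.0432). Slc13a2, the brush border dicarboxylate carrier and the family member next to Slc13a1 and Slc13a3, was named after its values were seen and had 33.4 ± 10.8 CPM in HIF2aM3 and 49.5 ± 2.82 CPM in WT (-0.58 ± 0.20; adjusted p = 0.147). The list median was -0.15. Without kidney 2 of 17-56 the called pair was Sucnr1 and Slc25a10, a mitochondrial dicarboxylate carrier gene, in place of Sucnr1 and Slc22a6.

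Of 10 genes of the SLC17 family and of urate transport 1 was called, with a list median of -0.011. Slc17a4, a low-level relative of Slc17a3, rose to 12.2 ± 1.48 CPM in HIF2aM3, against 5.60 ± 1.42 CPM in WT (log2 fold change 1.11 ± 0.19, SE; edgeR adjusted p = 0.0334). The neighbouring carrier gene Slc17a1 had 571 CPM in HIF2aM3 and 600 CPM in WT (adjusted p = 0.703). Among 7 tested aquaporin genes other than Aqp1, Aqp3, a basolateral channel gene of the collecting duct, fell to 73.6 ± 5.03 CPM in HIF2aM3, against 90.5 ± 1.86 CPM in WT (-0.30 ± 0.06; adjusted p = 0.0453). It is itself one of the collecting duct markers above, whose part in it was not tested, and it kept its call in none of the 6 leave-outs. Aqp2, the vasopressin-regulated channel gene of the same cells, was called as well without kidney 2 of 17-56, which made 2 of 7 lower. Of the other called genes of these lists, Atp6v0a4 and Slc17a4 kept the call in 2 leave-outs each and Agtr1a, Slc9a8, Slc22a6 and Sucnr1 in 1 each.

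Among 12 transcription factor genes linked to proximal transporters, Hnf4g rose to 21.9 CPM in HIF2aM3, against 15.7 CPM in WT (log2 fold change 0.49 ± 0.08, SE; edgeR adjusted p = 0.0302), and Esrra, the estrogen-related receptor α gene, fell to 119 CPM in HIF2aM3, against 150 CPM in WT (-0.34 ± 0.05; adjusted p = 0.0211). The Hnf4g call held in 2 of the 6 leave-outs and the Esrra call in 1. Exons of Esrra overlap Trmt112 on the opposite strand.

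**Figure D5:**
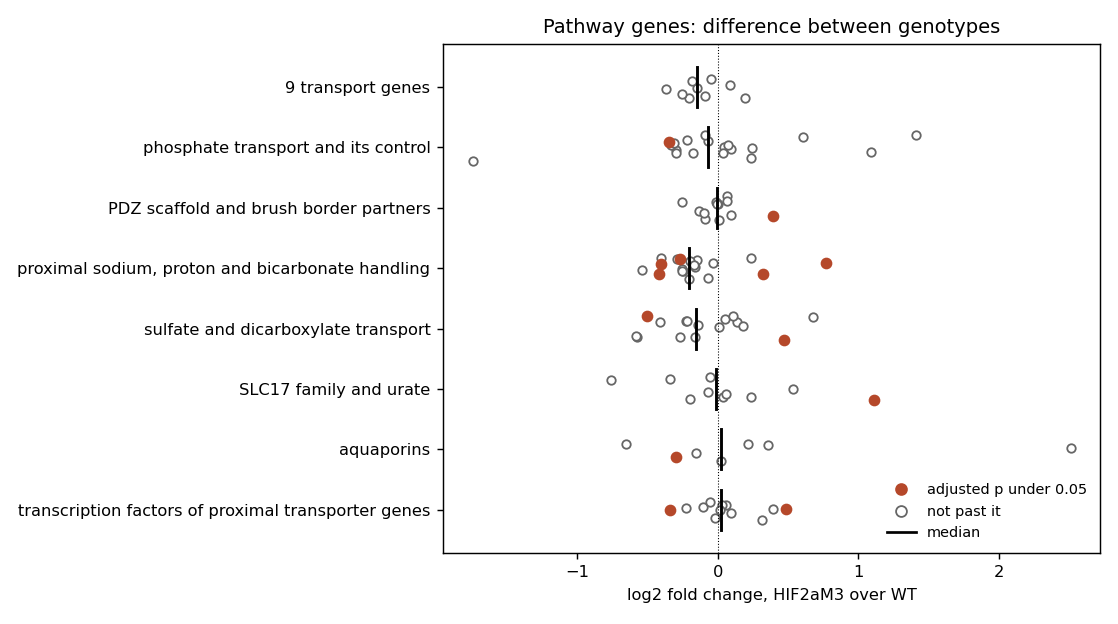
Log2 fold change of HIF2aM3 over WT for the 9 genes and for the tested genes of 7 related lists; each point is a gene, filled where the edgeR adjusted p is under 0.05, and bars are list medians. The 9 genes hold no filled point and span -0.37 to 0.19.

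By segment, the markers of the early and middle proximal tubule had 2 of 9 called, Slc5a12 higher (log2 fold change 0.49 ± 0.10, SE) and Slc22a6 lower, and neither was called without kidney 2 of 17-56 (adjusted p = 0.0517 for Slc5a12). Those of the late segment had 0 of 9, the smallest p being that of Slc5a1 (-0.49 ± 0.14; edgeR adjusted p = 0.0948). The late segment markers summed to 4870 to 5075 CPM in HIF2aM3 and 4530 to 5758 CPM in WT, and the early and middle ones to 5977 to 6658 CPM in HIF2aM3 and 6055 to 7025 CPM in WT. Podocyte markers summed to 898 to 904 CPM in HIF2aM3 and 789 to 1003 CPM in WT, with 0 of 10 called (smallest p for Magi2, 0.29 ± 0.08, adjusted p = 0.0805). Fibroblast and leukocyte markers summed to 301 to 449 CPM in HIF2aM3 and 165 to 298 CPM in WT, with 1 of 14 called, higher (Csf1r). Hepatocyte markers, several of which the tubule also expresses, summed to 1820 to 2591 CPM in HIF2aM3 and 2188 to 2295 CPM in WT, with 1 of 8 called, lower (Apoh). Nearly all of each hepatocyte sum was Cyp2e1, with 1759 to 2511 CPM in HIF2aM3 and 2119 to 2222 CPM in WT. The tubular injury genes had 0 of 12 called and a median of 0.52, which was -0.15 without kidney 2 of 17-56, where Clu was called lower.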

How the data were processed

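RNA was prepared from outer cortex slices with an Illumina TruSeq kit, per the labels' protocols, and the submitters' processing notes name mouse build mm9. The sources used here do not give the aligner, the counting program or its strand setting. The deposited count columns were taken as raw read counts, since the file headers name them only as counts. The authors computed RPKM from counts to which about 1 read had been added, as the values show. The deposited log2 fold change equals the log2 ratio of the authors' mean RPKM, and the deposited q-values come from the authors' own tests, per the file headers. Symbols came from GENCODE M21 for 24630 of 27412 rows, the rest holding 1.18% of counts.

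The kidneys of each animal were summed, and 3 HIF2aM3 animals were compared with 3 WT animals by the quasi-likelihood test of edgeR 4.0.16 (R 4.3.3, filterByExpr, TMM factors, robust, two-sided, adjusted p under 0.05). Kidney 2 was compared with kidney 1 over 12 libraries in a fit blocked by animal. Means ± SD are over animals. Ratios of carriers were tested by exact permutation over animals. No pair of libraries of one genotype agreed within sampling noise (lowest chi-square per degree of freedom 1.72 over 30 such pairs). The tests were tested on simulated data. Alternatives covered the replicate unit, kidney, DESeq2 1.42.0, scaling, filters, limma 3.58.1 on RPKM, and each animal or the shallow library left out. The fits without kidney 2 of 17-56, alone or with kidney 2 of 17-51, were chosen after seeing the data. The 9 genes and all lists were chosen with earlier results of these data known. Named genes were the 9, up to 4 called genes of each list by adjusted p (or, with fewer than 2 called, the 1 of smallest p), and the 3 genes nearest to Slc34a1 and Slc13a3. Promoter windows were read from RefSeq (GRCm38.p6), a build other than that of the alignment. Some genes of the lists are not reported here by name.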

Additional observations from a re-analysis of the deposited data

Results flagged for a closer look

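Among 38 genes examined in each genotype's 6 libraries (76 groups), 4 groups held a library far from the others by Dixon's criterion, which chance meets in about 1 in 20 groups. None of the 4 was one of the 9 transport genes. Agtr1a had 87.4 CPM in kidney 1 of HIF2aM3 17-56, with the next HIF2aM3 library at 79.1 CPM. Among the WT libraries, Agtr1a had 69.3 CPM in kidney 2 of WT 3, with the next at 63.3 CPM. Erg had 16.7 CPM in kidney 2 of HIF2aM3 17-51, the shallow library, with the next at 13.5 CPM. Clu, an injury gene, had 438 CPM in kidney 2 of HIF2aM3 17-56, with the next HIF2aM3 library at 303 CPM. Without that library Clu was called lower in HIF2aM3 (log2 fold change -0.76, edgeR adjusted p = 0.0245), against -0.62 and adjusted p = 0.0519 with it.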

How the results depend on the processing

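The log2 fold changes of Slc34a1, Slc34a3, Slc13a3, Slc17a3, Pdzk1 and Aqp1 were negative, and that of Slc4a4 positive, under all 22 alternatives, but some came close to 0 with 1 animal left out (Slc4a4 0.0012 without WT 2, Pdzk1 -0.024 without WT 3, Slc17a3 -0.052 without WT 1). With 1 animal left out, Slc9a3 ran from -0.13 to 0.050 (the last without WT 1) and Slc13a1 from -0.019 (without 17-56) to 0.28. No number of the 9 genes called was above 0 except 3 with the 12 libraries as replicates (Slc34a1, Slc13a3 and Aqp1), 2 with the animal as a random effect (Slc13a3 and Aqp1), 2 in DESeq2 (Slc34a3 and Slc13a3), 1 with no filter (Slc34a3) and 1 without WT 2 (Slc34a3), so leaving out an animal gave 0 to 1. The count of all genes called, 733 as reported, was 4829 with the libraries as replicates, 2884 with the random effect, 2038 in DESeq2, 337 with kidney 2 only, and 140, 114 and 67 with limma on log2 RPKM at pseudocounts of 0.1, 1 and 5. Leaving out an animal gave 11 to 1549 (42 without 17-51, 11 without 17-53, 196 without 17-56, 115 without WT 1, 1549 without WT 2, 187 without WT 3). The kidney comparison called 17 genes, 9 with library size alone, 4 to 91 with an animal left out, and 0 with no animal term in edgeR, where 188 had an unadjusted p under 0.05. The log2 ratio of Slc34a1 to Slc34a3 changed sign with raw counts (0.039), kidney 2 only (0.0011), and without WT 2 (0.028), WT 3 (0.027) or 17-56 (0.066), with leave-outs from -0.080 to 0.066. The cause of these shifts was not tested. No paired analysis was possible because the animals of the genotypes share no replicate numbers. The p-values of the main genotype fit cover the spread among 3 animals a genotype. Those of the kidney comparison and of the interaction cover the spread within animals. Those with the 12 libraries as replicates cover the spread among libraries.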
